A study of Mus musculus with 6 samples.

Results

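Heat shock proteins and chaperonins are the folding machinery of the cell, and their genes were followed here in the embryonic intestine of *Id2* knockout and wild-type mice. The genes were chosen by name, as every probe whose single gene symbol in the platform annotation belongs to the Hsp70 family (*Hspa*), the small heat shock proteins (*Hspb*), the Hsp110 family (*Hsph*) or the J proteins (*Dnaja*, *Dnajb* and *Dnajc*). To these were added *Hsp90b1* of the Hsp90 family, the mitochondrial chaperonin genes *Hspd1* and *Hspe1*, the cytosolic chaperonin genes *Tcp1* and *Cct2* to *Cct8*, and the endoplasmic reticulum (ER) genes *Calr*, *Canx*, *Pdia4* and *Pdia6*. This gave 69 probes for 66 genes out of 33012 probes, or out of 13840 genes that have a symbol of their own there. *Hspa1a*, *Hspa1b*, *Hspa8*, *Hsp90aa1*, *Hsp90ab1*, *Hspb1* and *Pdia3* fit the same description but had no probe of that name here and were not analysed.

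RNA was taken from the distal midgut of embryos at E13.5 (days of gestation), 3 samples from *Id2*+/+ wild-type and 3 from *Id2*-/- knockout littermates, with no treatment given in the labels. *Id2* encodes an inhibitor of basic helix-loop-helix transcription factors, and nothing in the labels restricts its loss to one cell type. The methods give an inbred strain background for the mutant line or a mix of it with NMRI, and the labels say neither which of these an embryo had nor whether a sample pools several embryos, so that a p-value here reflects the spread among the arrays alone. Each sample was hybridized to 1 Applied Biosystems mouse array, and the comparison asked which genes differ between the genotypes when the intestine forms without *Id2*.

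Chaperones bind proteins that are not yet folded and keep them from clumping. Hsp70 proteins do so in cycles driven by ATP, which J proteins start and nucleotide exchange factors, among them Hsp110, complete, whereas chaperonins enclose the protein in a ring-shaped chamber. Cytosolic chaperone genes are induced by the heat shock factor Hsf1, and those of the ER by the unfolded protein response, each through a short DNA element near the start of the gene.

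These elements were looked for in the promoters of the members as a description outside the arrays, and most members had neither. RefSeq promoter windows of 300 bases, 250 before the start of the gene and 50 after it (GRCm38.p6), were given for 57 of the 66 genes. The ER stress element, CCAAT followed after 9 bases of any kind by CCACG, on either strand, was found in 39 of 32851 windows of all genes (0.119%). Among the 76 windows of the members it was found in 6, of 6 genes that all encode ER proteins. Each is printed below in the direction of its gene, with the element in capitals and 12 bases on each side. In *Calr* and in the first sequence of *Hsp90b1* the element lies on the other strand, so that the capitals read as its reverse complement.
Hspa5, chr2:34772013-34772055, plus strand: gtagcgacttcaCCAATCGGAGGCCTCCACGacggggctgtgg
Hsp90b1, chr10:86705521-86705563, minus strand: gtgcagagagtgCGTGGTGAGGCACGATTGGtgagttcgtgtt
Hsp90b1, chr10:86705626-86705668, minus strand: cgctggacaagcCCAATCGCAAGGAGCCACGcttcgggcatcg
Calr, chr8:84847063-84847105, minus strand: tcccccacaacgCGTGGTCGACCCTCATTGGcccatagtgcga
Canx, chr11:50325788-50325830, minus strand: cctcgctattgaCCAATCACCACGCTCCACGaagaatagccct
Dnajc3, chr14:118937815-118937857, plus strand: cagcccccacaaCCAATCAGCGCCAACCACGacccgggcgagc
Pdia6, chr12:17266479-17266521, plus strand: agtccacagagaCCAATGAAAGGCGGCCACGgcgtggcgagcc

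A heat shock element of 3 alternating units with 2 bases of any kind between them, GAA, TTC and GAA or TTC, GAA and TTC, was found in 198 of the 32851 windows (0.603%). Among the 76 windows of the members it was found in 6, of the 4 genes *Dnajb6*, *Hspd1*, *Hspe1* and *Hsph1*. In *Hsph1* it lies after the start of the gene and is not printed. The others are given with 5 bases on each side, since *Hspd1* and *Hspe1*, which encode the partners of the mitochondrial chaperonin, share a single stretch of DNA between them that is read here on opposite strands and holds 2 overlapping matches. A match is a description of the letters and neither a binding site nor a cause.
Dnajb6, chr5:29735847-29735869, plus strand: tccgaGAATCTTCCGGAAcgcta
Hspd1, chr1:55088054-55088081, minus strand: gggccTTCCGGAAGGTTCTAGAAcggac
Hspe1, chr1:55088054-55088081, plus strand: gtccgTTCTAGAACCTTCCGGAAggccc

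Signals are given as log2 of the value that the authors normalized to the array median, and a probe with a signal-to-noise value of at least 3 on an array is called above background there. The arrays had 13891 to 16543 probes above background, with the lowest number on an *Id2*-/- array and the highest on another. The arrays numbered 1 in the labels stood apart in both genotypes. Their signals correlated at 0.984 with each other and at 0.909 to 0.931 with the remaining 4 arrays, which correlated at 0.979 to 0.988 among themselves. *Cdx2*, the homeobox gene of the intestinal epithelium, had signals of 5.55 to 7.05, and *Epcam* and *Cdh1*, which encode adhesion proteins of epithelial cells, were also above background on all 6 arrays. *Id2* itself was not analysed here, and the genotypes are those of the labels.

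Tested probes had no bad-spot flag on any array and lay above background throughout *Id2*+/+ or throughout *Id2*-/-. This held for 47 member probes of 44 genes, 45 of them above background on all 6 arrays, among 12741 tested probes in all. The remaining 22 probes, each the single probe of its gene, were not tested. Of these, 10 were above background on no array (*Cct6b*, *Dnajb7*, *Dnajb8*, *Dnajb13*, *Dnajc6*, *Dnajc11*, *Dnajc27*, *Hspa1l*, *Hspa12a* and *Hspb2*) and 6 on a single array (*Dnajb5*, *Dnajc5b*, *Dnajc5g*, *Dnajc9*, *Dnajc16* and *Hspa2*). *Dnaja4* and *Hspb3* were above background on 2 arrays, *Dnajc28* and *Hspa4* on 3, and *Dnaja1* and *Dnajb9* on 4.

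Chaperone genes had nearly the same signals in *Id2*-/- as in *Id2*+/+ midgut. In limma with Benjamini-Hochberg adjustment over all tested probes, 0 of the 47 member probes were higher and 0 were lower, beside 0.0% of all tested probes in either direction. At an unadjusted p under 0.05 there was 1 member, the small heat shock protein gene *Hspb8*, beside 1.84% of all tested probes differing either way. The median log2 difference, *Id2*-/- minus *Id2*+/+, was 0.04 over the members and 0.04 over all tested probes, and 39 of the 47 members lay within 0.2 of 0. No member differed by 2-fold between the genotype means, beside 1.55% of all tested probes. From the estimate to either end of its 95% interval, unadjusted, lay 0.823 in the median member, and 46 of the 47 intervals included 0. With 3 arrays in each genotype the adjusted test could miss larger differences than this. In simulated data with the measured spread between arrays, it called 0 of 50 probes changed by a log2 of 1. Of 50 probes changed by a log2 of 2 it called 28. The simulated arrays varied independently of each other. On the measured arrays, deviations from the genotype mean correlated between same-numbered arrays (0.838, 0.644 and 0.579 for numbers 1, 2 and 3). The simulated counts therefore need not hold for the measured arrays.

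**Figure D1:**
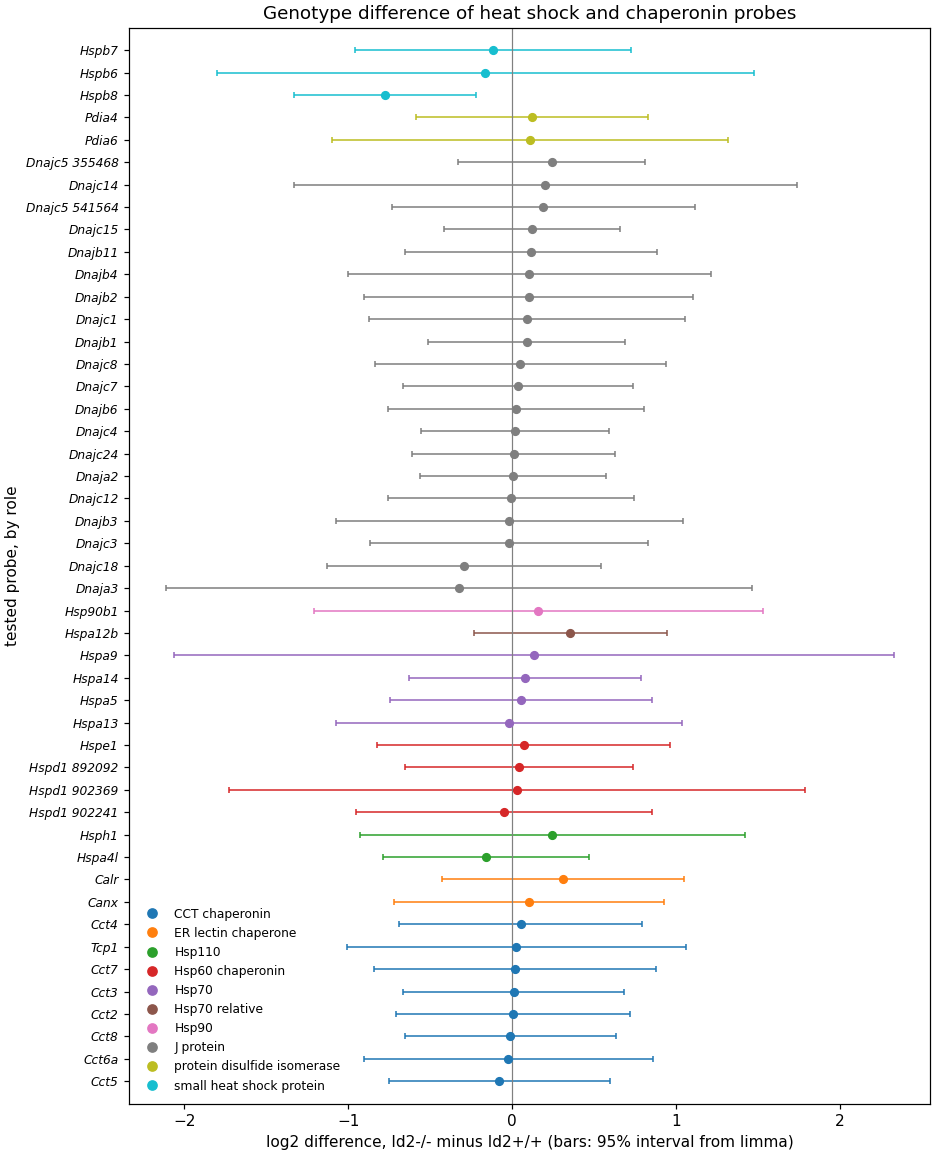
Log2 difference, *Id2*-/- minus *Id2*+/+ (horizontal axis), of each of the 47 tested probes (vertical axis, colored by role), with the 95% interval from limma as a bar. The interval of *Hspb8* lies below 0, and the other 46 include 0.

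With the array number as a replicate block, 0 members were again called, beside 1.06% of all tested probes higher and 1.12% lower. With quantile normalization added to the block, 0 members and 0 of all tested probes were called, and at an unadjusted p under 0.05 there were 1 higher member, *Hspa12b* (3.29% of all tested probes), and 2 lower ones, *Hspb8* and *Dnajc18* (4.08%). The members moved with the array number in step with the rest of the array. Within the pair of arrays numbered 1 their median difference was 0.42 against 0.35 for all tested probes, and 45 of 47 members (95.7%) were higher in *Id2*-/-, as were 85.6% of all tested probes. In the pair numbered 2 the medians were -0.03 and -0.04. Within the pair numbered 3 they were -0.23 and -0.19, and 42 of 47 members (89.4%) were lower, as were 74.4% of all tested probes. A single member, *Hspb8*, was lower in all 3 pairs, and 1 probe each of *Dnajc5*, *Hspa12b* and *Calr* was higher in all 3, beside 5.64% of all tested probes lower and 11.8% higher.

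The small heat shock proteins hold unfolded proteins without using ATP, and several are found chiefly in muscle. *Hspb8*, whose protein works with the cochaperone Bag3 to direct damaged proteins to autophagy, had log2 signals of 2.43, 2.10 and 2.40 on the *Id2*+/+ arrays numbered 1, 2 and 3 and of 1.57, 1.36 and 1.68 on the *Id2*-/- arrays. All 3 *Id2*-/- signals lay below the lowest *Id2*+/+ signal, which held for no other tested member and for 1.29% of all tested probes. The opposite order was seen in 0 of the 47 tested member probes and in 2.73% of all tested probes. The *Id2*+/+ mean was 2.31 ± 0.18 and the *Id2*-/- mean 1.54 ± 0.16 (SD, n = 3 each), a difference of -0.77 (SE 0.24; limma, unadjusted p = 0.013, adjusted p = 1) or 0.585-fold. The adjusted p was 0.15 with the replicate block, a limma fit that gave all probes a single variance. That value therefore does not measure the spread of the gene's own signals. *Hspb8* was above background on all 6 arrays. When all tested probes were cut by mean signal into 4 groups of equal size, it fell in the dimmest. In the pairs numbered 1, 2 and 3 *Hspb8* differed by -0.86, -0.75 and -0.72. Its partner gene *Bag3*, which is no member, had signals of 3.24, 3.01 and 2.99 on the *Id2*+/+ and of 3.94, 3.13 and 3.12 on the *Id2*-/- arrays, and the genotypes overlapped.

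*Hspb6* and *Hspb7*, which are best known from muscle, showed no such split of the genotypes. *Hspb6* had signals of 3.89, 5.99 and 6.60 on the *Id2*+/+ arrays and of 4.65, 5.83 and 5.49 on the *Id2*-/- arrays, so that both arrays numbered 1 lay lowest and the genotypes overlapped. *Hspb7* had signals of 2.69, 3.07 and 3.75 and of 2.61, 3.14 and 3.40, again with the arrays numbered 1 lowest. Some smooth muscle markers were low on the same arrays. Of 10 such genes 7 were measured, and the arrays numbered 1 were below the other 4 for 4 of these (31.1% of all tested probes) and not separated for 3. Their mean signal was 4.97, 5.92 and 6.31 on the *Id2*+/+ and 5.73, 6.01 and 5.81 on the *Id2*-/- arrays, where it hardly differed. The part of these markers in the values of *Hspb6* and *Hspb7* was not tested, and as whole tissue was measured, fewer cells of a type and less RNA per cell cannot be told apart.

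**Figure D2:**
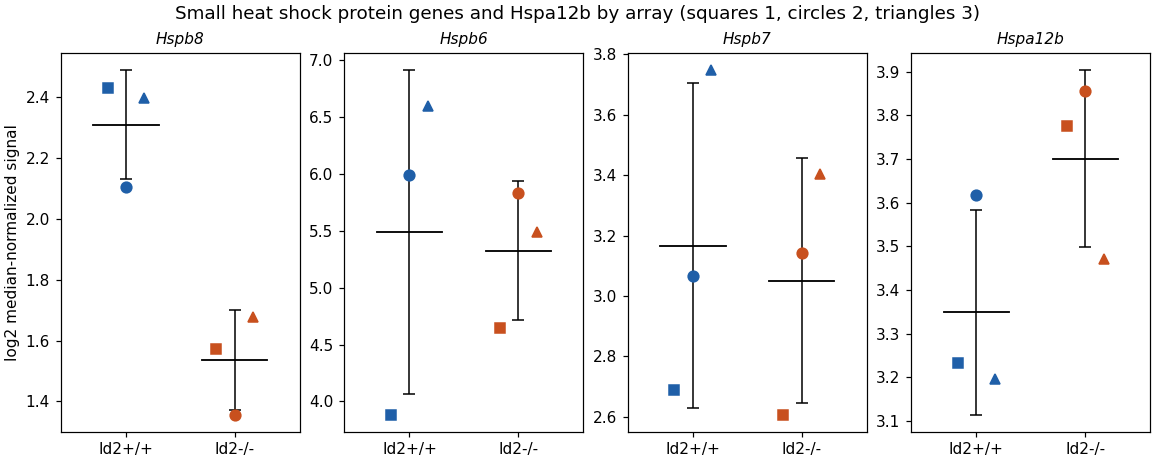
Log2 median-normalized signal (vertical axis, with a scale of its own in each panel) of *Hspb8*, *Hspb6*, *Hspb7* and *Hspa12b* on each array of *Id2*+/+ (blue) and *Id2*-/- (orange), with squares, circles and triangles for the arrays numbered 1, 2 and 3 and a line and bars for the mean and SD (n = 3). The genotypes separate for *Hspb8* alone, and for *Hspb6* and *Hspb7* the squares lie lowest.

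The largest positive difference among the members was that of *Hspa12b*, a distant Hsp70 relative known from endothelial cells. Its signals were 3.23, 3.62 and 3.20 on the *Id2*+/+ and 3.78, 3.86 and 3.47 on the *Id2*-/- arrays, and the groups overlapped, since the lowest *Id2*-/- signal was below the *Id2*+/+ signal of array 2. The difference was 0.35 (SE 0.25; limma, adjusted p = 1). The 7 measured genes of 10 endothelial markers had a median difference of 0.41, with 0 called, and their mean signal was 2.83, 3.17 and 3.37 on the *Id2*+/+ and 3.97, 3.52 and 3.20 on the *Id2*-/- arrays. Whether they bear on *Hspa12b* was not tested.

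Among the other members with the smallest unadjusted p, the differences ran from -0.32 to 0.31. *Calr*, which encodes the lectin chaperone calreticulin, differed by 0.31 (95% interval -0.43 to 1.05), and *Dnajc5*, which encodes the cysteine string protein of synaptic vesicles, by 0.24 in its brighter probe (-0.33 to 0.81) and by 0.19 in the other (-0.73 to 1.11). *Hsph1* differed by 0.24 (-0.93 to 1.42), *Hspa4l* by -0.16 (-0.79 to 0.47), *Dnajc15* by 0.12 (-0.41 to 0.66) and *Pdia4* by 0.12 (-0.59 to 0.83). *Dnajc18* differed by -0.29 (-1.13 to 0.54) and *Dnaja3* by -0.32 (-2.11 to 1.46). The wide interval of *Dnaja3* goes with its arrays numbered 1, described below, and with a signal below background on the *Id2*-/- array numbered 3.

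The largest offsets of the arrays numbered 1 exceeded every difference between the genotypes among the members. An offset is given as their mean log2 signal minus that of the other 4 arrays, as a description, since these arrays were known to stand apart. Both arrays numbered 1 lay above the other 4 for 20 of 47 member probes (27.6% of all tested probes), below them for 17 (31.1%) and inside their range or on both sides for 10. They lay outside on one side for 37 members in all, or 78.7%, beside 58.7% of all tested probes. After quantile normalization 19 lay above and 20 below, for which no share over all tested probes is given, so these counts are not compared. The median absolute offset was 0.698 over the members and 0.527 over all tested probes. An offset of at least 2-fold was seen upward in 9 members (12.5% of all tested probes) and downward in 1, *Hspb6* (8.53%). It had the same sign in both genotypes in 42 of 47 members, beside 74.7% of all tested probes, and the offsets of the genotypes correlated at 0.958 over the 47 probes, which share the arrays (0.838 over all tested probes).

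**Figure D3:**
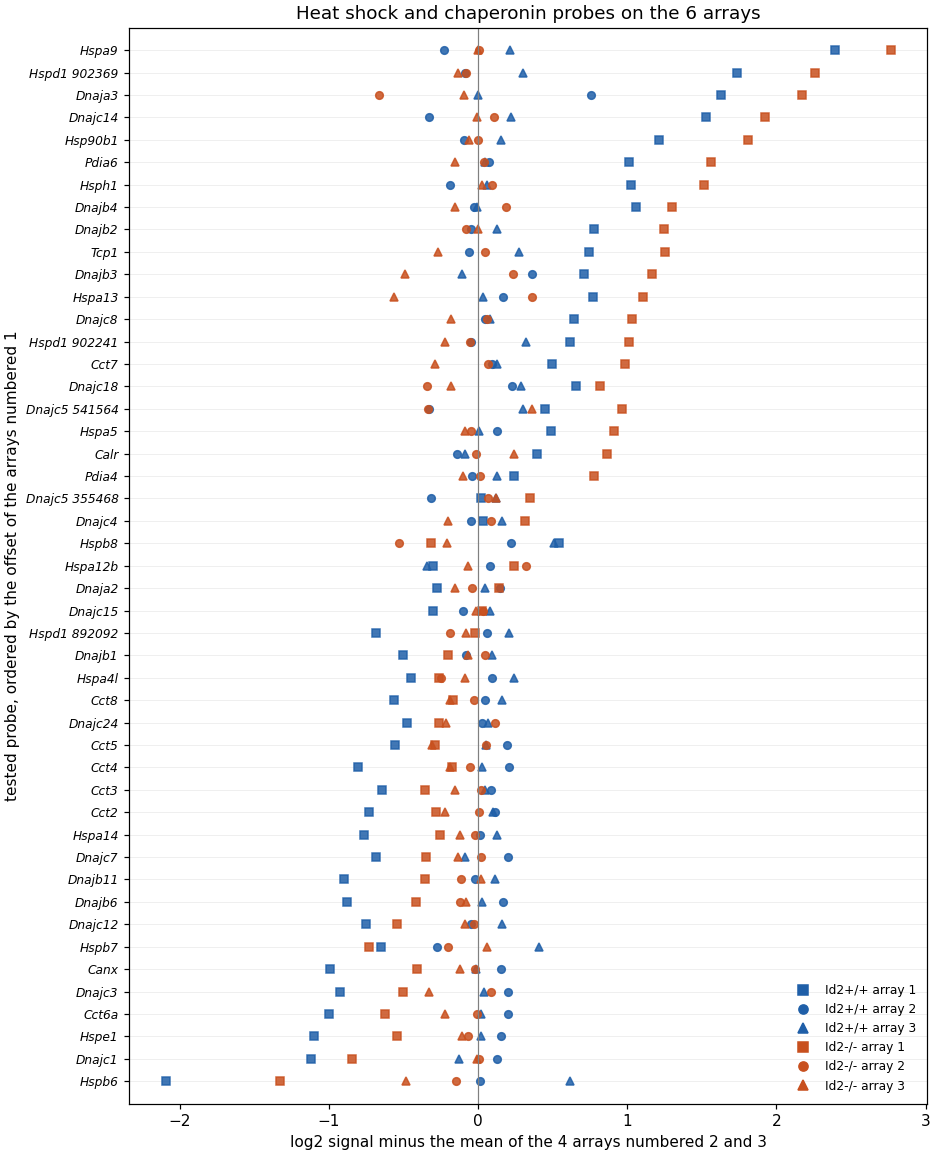
Log2 signal of each array minus the mean of the 4 arrays numbered 2 and 3 (horizontal axis) for the 47 tested probes (vertical axis, ordered by the offset of the arrays numbered 1). Squares mark the arrays numbered 1, which run from -1.71 for *Hspb6* to 2.58 for *Hspa9* in the mean of both genotypes, while circles and triangles mark the other 4 arrays.

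Over the whole array the offset went with the brightness of the probe. When all tested probes were cut by mean signal into 4 groups of equal size, all 8 members of the dimmest group were higher on the arrays numbered 1, as were 53.5% of all probes of that group. In the brightest group 17 of 26 members were lower, a share near the 67.5% of all its probes. Over all tested probes the median offset was 0.08, 0.05, -0.13 and -0.30 from the dimmest group to the brightest. The part of brightness in the values of single members was not tested. Some markers of gut epithelium were low on the arrays numbered 1. Of 22 such genes 16 were measured. The arrays numbered 1 were below the other 4 for 8 of them (31.1% of all tested probes) and above for none (27.6%). The mean signal of the 16 genes was 4.80, 5.89 and 6.22 on the *Id2*+/+ and 5.28, 5.31 and 5.42 on the *Id2*-/- arrays, where it hardly differed. Their part in the offsets was not tested.

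The 3 tested probes with the largest offsets, of *Hspa9*, *Hspd1* and *Dnaja3*, belong to the mitochondrial folding machinery, whose members did not share a direction. *Hspa9*, which encodes the Hsp70 that pulls imported proteins into the mitochondrion, had signals of 6.10, 3.48 and 3.93 on the *Id2*+/+ arrays numbered 1, 2 and 3 and of 6.48, 3.72 and 3.71 on the *Id2*-/- arrays. Both arrays numbered 1 were thus far above the rest, by 2.58 or 5.97-fold, while the genotype means, 4.50 ± 1.40 and 4.64 ± 1.59 (SD, n = 3), differed by 0.13. *Dnaja3*, which encodes its J protein partner, had signals of 2.20, 1.33 and 0.57 and of 2.74, -0.10 and 0.48, an offset of 1.90. *Hspe1*, which encodes the lid of the chaperonin chamber, went the other way. Its signals were 8.81, 10.06 and 9.93 and 9.37, 9.84 and 9.80, lowest on both arrays numbered 1, with an offset of -0.82.

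*Hspd1*, which encodes the chamber itself, had 3 tested probes, and they disagreed. Probe 902369 had signals of 5.40, 3.57 and 3.96 on the *Id2*+/+ and of 5.92, 3.58 and 3.53 on the *Id2*-/- arrays, an offset of 2.0. Probe 902241 had signals of 7.11, 6.45 and 6.82 and of 7.51, 6.44 and 6.28, an offset of 0.82. For probe 892092 the signals were 7.82, 8.56 and 8.71 and 8.48, 8.32 and 8.42, so that the *Id2*+/+ array numbered 1 was lowest, the *Id2*-/- array numbered 1 was highest in its genotype, and the offset was -0.35. The size of the offset therefore depended on the probe of the same transcript. Offsets of opposite sign, however small, were found in 101 of 215 genes with several tested probes (47%). A probe above and another below the other 4 arrays were found in 42 of them (19.5%), and *Hspd1* was not among these. The spread between the probes was 2.35 in *Hspd1* and 0.802 in the median of these genes. The genotype differences of the 3 probes were 0.03, -0.05 and 0.04. Each genotype has 1 array numbered 1, so an offset that both share drops out of such a difference. *Hspd1* and *Hspe1* share the heat shock element printed above, and the offsets of their probes ran from -0.82 to 2.0.

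**Figure D4:**
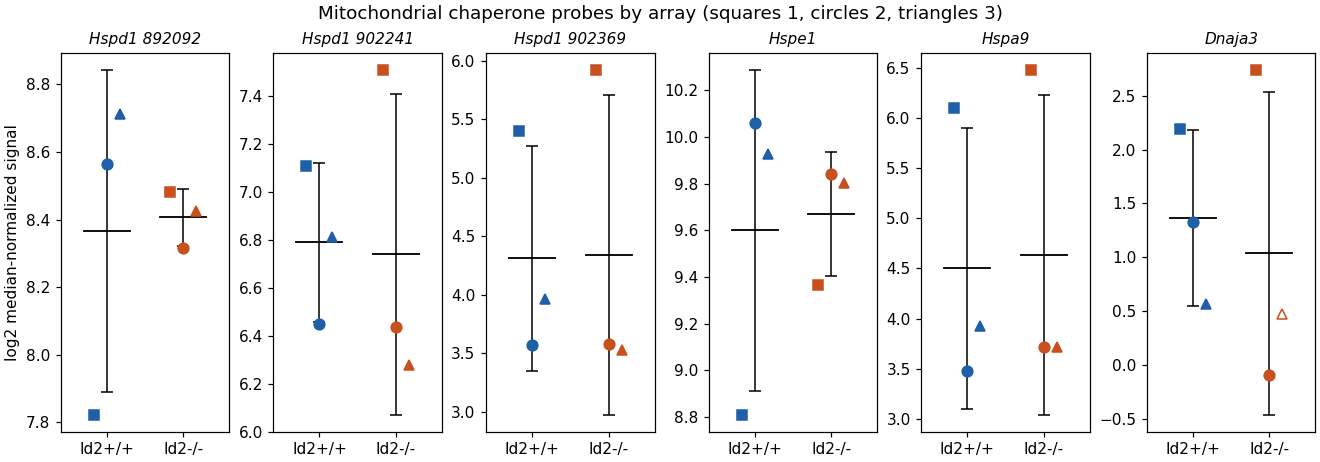
Log2 median-normalized signal (vertical axis, with a scale of its own in each panel) of the probes of *Hspd1*, *Hspe1*, *Hspa9* and *Dnaja3* on each array of *Id2*+/+ (blue) and *Id2*-/- (orange), with symbols, lines and bars for array number, mean and SD (n = 3), and an open symbol where the signal was below background. The squares of the arrays numbered 1 are highest for *Hspa9*, *Dnaja3* and 2 probes of *Hspd1* and lowest for *Hspe1*.

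Of 11 genes for mitochondrial proteases and import motor subunits, 10 were measured and 0 were called between the genotypes, with a median difference of -0.07. The arrays numbered 1 were above the other 4 for 7 of them (27.6% of all tested probes) and below for 2 (31.1%). *Pam16* and *Timm44*, whose proteins tether and regulate mitochondrial Hsp70 at the import pore, differed by 0.10 (SE 0.25) and -0.16 (SE 0.41) between the genotypes. *Grpel1*, the gene of its nucleotide exchange factor, had signals of 0.66, 0.84 and 1.03 on the *Id2*+/+ and of 0.32, 0.45 and -0.71 on the *Id2*-/- arrays. The genotypes did not overlap, with *Id2*-/- lower, as for 1.29% of all tested probes. *Grpel1* lay in the dimmest of the 4 groups by mean signal. Its difference was -0.82 (SE 0.35; limma, adjusted p = 1, and 0.098 with the replicate block). The blocked fit gave all probes a single variance, so its p-value does not measure the spread of the gene's own signals. The lowest of these signals, -0.71, was that of the *Id2*-/- array numbered 3. *Sil1*, which encodes the exchange factor of the ER, differed by -0.12 (SE 0.54).

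The cytosolic chaperonin, known as CCT or TRiC, folds actin and tubulin in a double ring of 8 different subunits. All 8 subunit genes measured, *Tcp1* and *Cct2*, *Cct3*, *Cct4*, *Cct5*, *Cct6a*, *Cct7* and *Cct8*, were above background on all 6 arrays and differed by -0.08 to 0.05 between the genotypes. *Tcp1* had signals of 6.90, 6.10 and 6.44 on the *Id2*+/+ and of 7.42, 6.20 and 5.89 on the *Id2*-/- arrays, highest on both arrays numbered 1, with an offset of 1.0. *Cct7* was highest there as well, with an offset of 0.74. In *Cct6a* the signals were 8.76, 9.96 and 9.78 and 9.13, 9.75 and 9.54, lowest on the arrays numbered 1, with an offset of -0.81, and *Cct2* and *Cct3* were also lowest there (-0.51 and -0.50). *Cct4*, *Cct5* and *Cct8*, with offsets of -0.49, -0.42 and -0.37, had 1 array numbered 1 within the range of the other 4. Subunits of a single complex thus had offsets of both signs. Offsets that both genotypes share drop out of the genotype differences, so the narrow range of these differences is no separate result.

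Of 14 prefoldin and tubulin cofactor genes, whose proteins deliver substrates to CCT or take them from it, 10 were measured. None was called, and their median difference was 0.00. *Tbca* and *Tbcc*, which encode tubulin cofactors, differed by -0.12 (SE 0.29) and 0.20 (SE 0.26).

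In the ER the 10 tested members were above the other 4 arrays on the arrays numbered 1 in 6 cases (27.6% of all tested probes) and below them in 4 (31.1%). *Hspa5*, which encodes the ER Hsp70 known as BiP, had signals of 8.89, 8.53 and 8.41 on the *Id2*+/+ and of 9.31, 8.35 and 8.31 on the *Id2*-/- arrays, and the genotypes differed by 0.05 (95% interval -0.75 to 0.85). *Hsp90b1*, the gene of the ER Hsp90, had signals of 6.22, 4.92 and 5.16 and of 6.82, 5.01 and 4.95. Its offset of 1.51, or 2.85-fold, was the largest of the ER genes, beside a genotype difference of 0.16. *Pdia6*, *Hspa13*, *Hspa5*, *Calr* and *Pdia4* followed with offsets of 1.29, 0.94, 0.70, 0.63 and 0.51.

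*Canx*, which encodes the membrane-bound partner of calreticulin, had signals of 8.02, 9.17 and 9.00 on the *Id2*+/+ and of 8.61, 8.99 and 8.90 on the *Id2*-/- arrays, lowest on both arrays numbered 1. Its offset was -0.70 and its genotype difference 0.10. The ER J protein genes *Dnajc1*, *Dnajc3* and *Dnajb11* had offsets of -0.98, -0.71 and -0.63. Among the 6 genes whose ER stress element is printed above, *Hsp90b1*, *Pdia6*, *Hspa5* and *Calr* were higher and *Canx* and *Dnajc3* lower on the arrays numbered 1, and none passed the genotype test. *Dnajb9*, the gene of a further ER J protein, was not tested, with signals of 1.72, -0.55 and -0.42 and of 1.65, 0.40 and -0.28 that were below background on both arrays numbered 3.

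Other genes of the ER followed no common direction either. Of 28 genes of the unfolded protein response, 17 were measured with a median difference of 0.06, and of 23 further ER folding genes 13 were measured with a median of -0.01. None was called. *Wfs1*, which encodes an ER membrane protein, differed by 0.39 (SE 0.25), *Atf3*, a stress-induced transcription factor gene, by -0.73 (SE 0.51), *P4hb*, which encodes protein disulfide isomerase, by 0.15 (SE 0.26) and *Ppib*, which encodes cyclophilin B, by -0.14 (SE 0.28).

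In the cytosol the Hsp110 gene *Hsph1* had signals of 4.53, 3.32 and 3.57 on the *Id2*+/+ and of 5.02, 3.60 and 3.53 on the *Id2*-/- arrays, an offset of 1.27. *Hspa4l*, of the same family, had an offset of -0.35. *Hspa4*, the third of them, was not tested. Its signals of 2.85, -1.0 and 0.57 and of 3.57, 0.34 and 0.35 were highest on the arrays numbered 1, and it was below background on 3 of the other 4 arrays, so that no offset is given. *Hspa14*, whose protein sits at the ribosome, had a genotype difference of 0.08 and an offset of -0.51.

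The J proteins made up 20 of the tested probes, of 19 genes, and their genotype differences ran from -0.32 to 0.24 with a median of 0.04. *Dnajb1*, the partner of Hsp70 in the heat shock response, had signals of 4.71, 5.13 and 5.31 on the *Id2*+/+ and of 5.01, 5.26 and 5.14 on the *Id2*-/- arrays, a difference of 0.09 (95% interval -0.51 to 0.69). *Dnaja1*, another such partner, was above background on 4 arrays and not tested. On the arrays numbered 1, 8 of these probes were above the other 4 arrays (27.6% of all tested probes) and 8 below (31.1%). The largest offsets beside that of *Dnaja3* were 1.72 for *Dnajc14*, 1.18 for *Dnajb4* and 1.01 for *Dnajb2*. *Dnajc14* had signals of 2.78, 0.92 and 1.48 and of 3.17, 1.36 and 1.25, with both arrays numbered 1 highest. The lowest after *Dnajc1* and *Dnajc3* were -0.65 for *Dnajc12* and -0.65 for *Dnajb6*, whose heat shock element is printed above.

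Genes that act on the chaperones or are induced with them were not called between the genotypes. Of 30 cochaperone genes of Hsp90 and Hsp70, 21 were measured with a median difference of 0.05, and *Bag3* and *Bag5* had the smallest p among them with differences of 0.31 (SE 0.30) and 0.21 (SE 0.23). Of 7 heat shock factor genes and their regulators 2 were measured, *Hsf2* with a difference of 0.12 (SE 0.42) and *Hsbp1* with 0.06 (SE 0.23). Of 15 other genes induced by Hsf1, 11 were measured with a median of 0.09, and *Hmox1*, which encodes heme oxygenase, differed by 0.40 (SE 0.31). The arrays numbered 1 were above the other 4 for 5 of these 11 genes (27.6% of all tested probes) and below them for none (31.1%). Of those above, *Bag3*, *Chordc1*, *Fkbp4* and *Stip1* are also in the cochaperone list. Among its 21 measured genes 10 were above and 7 below.

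Immediate early genes, which many cells switch on within minutes of a disturbance, were the one pathway list with calls in the blocked fit. Of 26 genes 19 were measured, with a median difference of -0.21 and 0 called, but 2 were lower in *Id2*-/- with the replicate block. *Fos* had signals of 1.05, 3.83 and 4.98 on the *Id2*+/+ and of 0.59, 1.45 and 1.76 on the *Id2*-/- arrays, a difference of -2.02 (limma with the replicate block, adjusted p = 1.35e-10), and *Egr1*, chosen after its values were seen, of -1.07 (adjusted p = 0.0077). The blocked fit gave all probes a single variance, so these adjusted p-values do not measure the spread of the 2 genes' own signals. Without the block the SE was 0.93 for *Fos* and 0.88 for *Egr1* (limma, unadjusted p = 0.065 and 0.26), and neither was called. *Ier3* differed by -0.59 (SE 0.25, and limma adjusted p = 0.55 with the block). *Fos* and *Egr1* were also lowest on the arrays numbered 1 of their genotypes, with offsets of -2.19 and -1.82. With quantile normalization beside the replicate block, 0 of all tested probes were called.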

How the data were processed

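Distal midgut RNA from 3 *Id2*+/+ and 3 *Id2*-/- samples at E13.5 was amplified, labeled and hybridized to 1 single-color array each, as the labels describe. The deposited files hold the intensity of each probe as the scanner software gave it, its signal-to-noise score, a quality flag and a ratio, the intensity divided by the authors by the median of the unflagged spots of the array (708.015 to 1010.43). The sources used here do not say whether a background was subtracted. The methods exclude flags under 5000, whereas flags of 5000 or more were taken as bad spots here. Log2 of the ratio of 12741 probes was tested. These were unflagged on all 6 arrays and reached a score of 3 on each array of one genotype or the other. The test was made with limma 3.58.1 (lmFit and eBayes) in R 4.3.3, with Benjamini-Hochberg adjustment over all of them at 0.05. The script was tested on simulated data. The number of arrays limits the precision.

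Gene symbols come from the platform annotation. Of 33012 probes, 14411 have a single symbol, 247 several and 18354 none, and 0 member symbols were out of date. Where a gene has several tested probes, the one with the highest mean stands for it, unless a probe number is given. The members and lists were chosen with earlier results of these data known. Named with values were the 10 members with the smallest unadjusted p, since 0 passed the adjusted test, the 8 with the largest and the 8 with the smallest offset of the arrays numbered 1, representatives of each role, and the 2 genes of each pathway list with the smallest p. Further members were named to complete their role. The labels number the arrays 1 to 3 in each genotype. As a check, each array's deviation from its genotype mean was correlated with that of its same-numbered partner (0.838, 0.644 and 0.579 for numbers 1, 2 and 3). On this basis the numbers were treated as a pairing, which the labels do not state, and a fit with the number as a replicate block was run beside the first. Alternatives were quantile normalization, a stricter filter on dim probes and none, 50% of the median added before log2, the deposited series table (largest difference from the array files 0), a trended robust prior, the mean of the probes of a gene, leaving out arrays, and the methods' t-test. Elements were searched as letters in RefSeq promoter windows of GRCm38.p6. Figures were drawn with matplotlib 3.10.9.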

Additional observations from a re-analysis of the deposited data

How the results depend on the processing

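The count of members passing the adjusted test was 0 in limma under each alternative run and in the methods' t-test. It was 0 with the replicate block and 0 with the replicate block and quantile normalization. At an unadjusted p under 0.05 the count was 1 without a block and 3 with the replicate block and quantile normalization (*Hspb8*, *Hspa12b* and *Dnajc18*). It was 2 without both arrays numbered 1 (*Hspb8* and *Dnajc18*), and leaving out each array in turn gave 0 to 2. The 0 came without the *Id2*-/- array numbered 2, where *Hspb8* had an unadjusted p of 0.069 in limma, and the 2 without the *Id2*-/- array numbered 1. The difference of *Hspb8* ran from -0.88 to -0.68 and its adjusted p from 0.15 to 1 over the alternatives. The 34 named members gave 545 alternative values, none of them called, and 76 of these values in 27 members had the other sign, so the direction of small differences is not settled. In the blocked fit limma gave all probes a single variance. Among the tested members, *Dnaja3* and *Hspa13* were below background on 1 array and rest partly on such a signal.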

Other observations

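Markers of other cell types were read beside the chaperone genes, and 0 genes of these lists were called in limma without a block. Mesenchyme (8 of 11 genes measured), enteric neural cells (6 of 12), macrophages (7 of 13) and striated muscle (4 of 12) had median log2 differences, *Id2*-/- minus *Id2*+/+, of 0.14, 0.07, -0.11 and -0.04. Erythroid markers (5 of 12) had a median of 0.72, pancreas (2 of 13) of 0.60 and liver (3 of 10) of -0.49, while gut epithelium (16 of 22) had -0.30 and smooth muscle (7 of 10) 0.16. With the replicate block 1 gene of the epithelium list was lower, *Foxa3*, a forkhead factor gene of the endoderm, with a difference of -0.94 (adjusted p = 0.034). In the same limma fit 1 gene of the pancreas list was higher, *Clps*, which encodes colipase (adjusted p = 1.12e-06). Its signals were 0.84, -0.64 and -0.93 on the *Id2*+/+ and 1.41, 1.36 and 1.35 on the *Id2*-/- arrays. *Clps* lay in the dimmest of the 4 groups by mean signal. *Cpa1*, the only other pancreas gene measured, went the other way, with a difference of -0.41. The signals of *Cpa1* were 4.02, 0.13 and 0.59 on the *Id2*+/+ and 0.40, 2.53 and 0.58 on the *Id2*-/- arrays. The blocked fit gave all probes a single variance, so these adjusted p-values do not measure the spread of each gene's own signals. Without the block the unadjusted p was 0.062 for *Foxa3* and 0.0093 for *Clps* (limma), and neither was called. Both genes were picked out after their values were seen, and 0 probes were called once quantile normalization was added to the block.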
